A study of Homo sapiens with 18 samples.

Results

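The genes described here are 10 long noncoding RNAs (lncRNAs) known from work on hypoxia and cancer: NEAT1, MALAT1, MIR210HG, HOTAIR, UCA1, PVT1, LUCAT1, TUG1, CYTOR and NORAD. They were picked by symbol, with earlier results of these data known, and all 10 were found among the 28277 genes of the deposited count table. Counts came from RNA-seq of OVCAR3-KRAB, an established ovarian cancer cell line that expresses dCas9-KRAB, a repressor that a guide RNA (sg) brings to a chosen promoter. The study asked how loss of the lncRNA XIST changes these cells, and how such cells respond to low oxygen. Clonal cells carried sgXIST7 or sgXIST9, both directed at the XIST promoter, or sgCtl, directed at a Gal4 promoter. Each was cultured in normoxia, or in a chamber at 1% oxygen for 24 h. With 3 replicates of each of the 6 groups, there were 18 libraries. All groups, sgCtl included, carry dCas9-KRAB and a guide. The cells of each guide are clonal, so that a difference between guides cannot be told apart from a difference between clones. Neither the study's text nor the labels say whether the libraries of a guide came from 1 clone. In what follows, a clone stands for the cells of 1 guide, and the KD clones are those of sgXIST7 and sgXIST9. The study's text calls the RNA-seq replicates biological, but neither it nor the labels say whether they were separate cultures, and p-values then measure only the spread between these libraries.

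LncRNAs act as RNA, and several of these have well-known roles. NEAT1 is the scaffold of paraspeckles, MALAT1 is an abundant RNA of nuclear speckles, NORAD binds PUMILIO proteins in the cytoplasm, and MIR210HG is the host transcript of miR-210, the microRNA most often associated with hypoxia. When oxygen falls, the hypoxia-inducible factors (HIF) are no longer degraded and bind the hypoxia response element in genes of glycolysis, angiogenesis and pH control. LUCAT1 is known as a stress-responsive lncRNA linked to the NRF2 oxidative stress response, CYTOR (LINC00152) as a lncRNA raised in many carcinomas, and HOTAIR, UCA1, PVT1 and TUG1 are widely studied in tumors.

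In hg38, NEAT1 (chr11:65422798-65445538) and MALAT1 (chr11:65497738-65506512) are neighbors on the plus strand. MIR210HG (chr11:565657-568457, minus strand) holds the miR-210 hairpin in its intron. HOTAIR is at chr12:53962308-53974956 on the minus strand within the HOXC cluster, UCA1 at chr19:15828947-15836321 on the plus strand, LUCAT1 at chr5:91302986-91314402 on the minus strand, TUG1 at chr22:30969211-30979394 on the plus strand, CYTOR at chr2:87455427-87521518 on the plus strand and NORAD at chr20:36045618-36050960 on the minus strand.

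The microRNA that MIR210HG hosts is shown because its sequence is what this locus is known for. RefSeq (GRCh38.p14) places miR-210-3p at chr11:568112-568133 and miR-210-5p at chr11:568150-568171, both on the minus strand. Capitals mark the seed, bases 2 to 8 from the 5′ end.
hsa-miR-210-3p: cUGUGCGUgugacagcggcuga
hsa-miR-210-5p: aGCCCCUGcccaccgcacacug

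Promoters are shown for the 3 lncRNAs that were called in hypoxia, since they moved in different ways. Each window runs from 250 bases before to 50 bases after the RefSeq start of the gene (GRCh38.p14), 5′ to 3′ on the strand of the gene. The windows are chr11:568408-568707 for MIR210HG, chr5:91314353-91314652 for LUCAT1 and chr2:87455177-87455476 for CYTOR. Capitals mark matches, on either strand, to ACGTG or GCGTG, the core of the hypoxia response element, and to TGACNNNGC, the core of the antioxidant response element bound by NRF2.
MIR210HG: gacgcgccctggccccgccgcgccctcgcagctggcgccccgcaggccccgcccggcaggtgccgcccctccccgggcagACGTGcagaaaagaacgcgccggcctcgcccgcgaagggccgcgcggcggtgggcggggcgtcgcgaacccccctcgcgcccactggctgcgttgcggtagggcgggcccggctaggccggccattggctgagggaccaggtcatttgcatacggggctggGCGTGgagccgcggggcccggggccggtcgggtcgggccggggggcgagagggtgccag
LUCAT1: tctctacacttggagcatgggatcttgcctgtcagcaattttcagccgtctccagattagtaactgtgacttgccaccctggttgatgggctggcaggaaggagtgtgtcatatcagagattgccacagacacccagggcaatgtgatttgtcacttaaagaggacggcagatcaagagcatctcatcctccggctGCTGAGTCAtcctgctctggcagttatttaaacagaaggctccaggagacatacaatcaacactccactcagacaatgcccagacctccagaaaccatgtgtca
CYTOR: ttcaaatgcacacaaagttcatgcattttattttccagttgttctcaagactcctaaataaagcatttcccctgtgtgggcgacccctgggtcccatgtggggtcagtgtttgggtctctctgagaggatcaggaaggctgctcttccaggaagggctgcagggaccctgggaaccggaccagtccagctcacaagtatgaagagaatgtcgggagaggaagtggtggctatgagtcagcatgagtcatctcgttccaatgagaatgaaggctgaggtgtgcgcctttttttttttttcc

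The MIR210HG window had 1 ACGTG, whose first base lies at -170 from the start, and 1 GCGTG at -9, in a sequence with 80.0% G or C. The LUCAT1 window had neither, and had 1 match to TGACNNNGC on the opposite strand, printed as GCTGAGTCA, at -54. In the CYTOR window none of the 3 motifs was found. Of 35116 RefSeq promoter windows of the same 300 bases, 21.4% held ACGTG, 36.5% held GCGTG, 48.4% held either and 13.3% held TGACNNNGC, so that each match is common.

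Total counts ranged from 11794375 to 24906936 per library. XIST had 4213 to 11209 counts in sgCtl in normoxia, 1 to 5 in sgXIST7 and 650 to 1009 in sgXIST9. In hypoxia it had 1589 to 5014, 0 to 3 and 357 to 510 counts. Of 14 ovarian carcinoma epithelium markers, 4 reached a mean CPM of 1, EPCAM, KRT18, KRT8 and PAX8, and CLDN3 was at 0. The summed CPM of the 5 fibroblast markers was 1.24 to 3.72 in sgCtl and 33.4 to 308 in the KD clones, nearly all of it COL1A2, with a mean of 63.5 CPM over the libraries against 2.17 for COL1A1 and less for DCN, LUM and PDGFRA. The summed CPM of 6 immune markers, mostly CD68, was 37.4 to 56.0 in normoxia and 14.5 to 25.3 in hypoxia in sgXIST9, and 11.4 to 33.4 in the other groups. That of the 4 endothelium markers did not exceed 0.684 in any library. RN7SL1, a small noncoding RNA, took 2.996% to 4.99% of counts in normoxia and 5.05% to 8.13% in hypoxia. The part of any of these in the differences between clones or conditions was not tested. The 10 lncRNAs took from 0.472% to 1.24% of all counts, most of it MALAT1 (0.391% to 1.14%). In 2 normoxia libraries, sgCtl replicate 2 and sgXIST7 replicate 2, MALAT1 stood at 10390 and 9707 CPM, against 3760 to 7202 CPM in the other 7.

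Of the 10 lncRNAs, 8 passed the filter on low counts and were tested, while HOTAIR and UCA1 did not. Tests were edgeR's quasi-likelihood F-tests, with Benjamini-Hochberg adjustment over 14938 genes. Called genes have an adjusted p-value below 0.01 together with a log2 fold change beyond 1 in either direction. Levels are CPM, the counts divided by a library size that was scaled with the trimmed mean of M values (TMM). In hypoxia, MIR210HG and LUCAT1 were up-regulated in all 3 clones and CYTOR was down-regulated in both KD clones. The others stayed within 1 log2 unit of their normoxia level. Hypoxia thus called 2 lncRNAs in sgCtl, 3 in sgXIST7 and 3 in sgXIST9, of 8 tested. Of all genes tested, 19.7% were called in sgCtl, 27.3% in sgXIST7 and 23.3% in sgXIST9. At an adjusted p-value under 0.05 without a fold minimum, 2, 5 and 3 of the 8 passed, where 51.4%, 59% and 55.3% of all genes did. With 8 genes, the number called says little about the lncRNAs as a set.

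**Figure D1:**
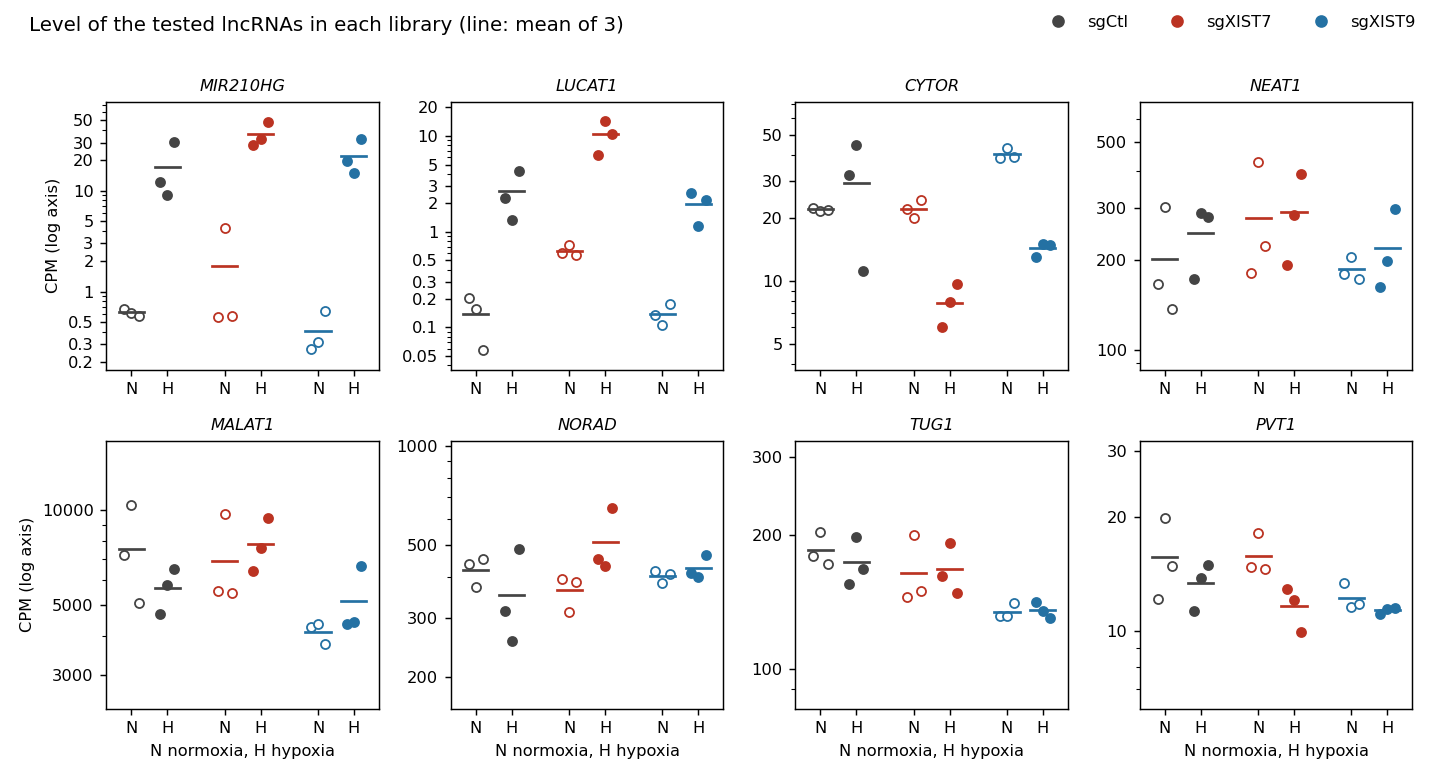
CPM (log axis) of the 8 tested lncRNAs in each of the 18 libraries, with open points for normoxia (N), filled points for hypoxia (H) and a line at the mean of 3 libraries. MIR210HG and LUCAT1 are higher in each hypoxia library than in any normoxia library of their clone, and CYTOR is lower in hypoxia in sgXIST7 and sgXIST9.

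MIR210HG was nearly silent in normoxia and rose strongly in hypoxia in each clone. In sgCtl it had 10, 8 and 10 counts in normoxia (0.671, 0.619 and 0.574 CPM) and 194, 184 and 340 in hypoxia (12.1, 9.13 and 30.1 CPM). In sgXIST7 the levels were 0.562, 4.22 and 0.566 CPM in normoxia and 28.2, 32.7 and 47.6 CPM in hypoxia. In sgXIST9 they were 0.268, 0.319 and 0.642 CPM in normoxia and 19.5, 14.9 and 32.3 CPM in hypoxia. Normoxia and hypoxia did not overlap in any clone, sgXIST7 normoxia replicate 2 stood above the other 8 normoxia libraries, and the hypoxia library numbered 3 was the highest of its clone each time. The log2 fold change was 4.76 in sgCtl (SE 0.713, edgeR adjusted p-value = 3.81e-05), 4.40 in sgXIST7 (SE 0.616, adjusted p-value = 1.16e-05) and 5.78 in sgXIST9 (SE 0.731, adjusted p-value = 5.18e-06). When libraries were left out in turn, it stayed between 4.09 and 5.07, between 3.96 and 5.98, and between 5.42 and 6.21. The difference in response from sgCtl was -0.35 in sgXIST7 (95% interval -2.35 to 1.65, adjusted p-value = 0.841) and 1.02 in sgXIST9 (-1.36 to 3.40, adjusted p-value = 0.644). These intervals are wide, and a difference of over 1 log2 unit either way lies inside both. Without sgXIST7 normoxia replicate 2, the difference for sgXIST7 was 1.23 (adjusted p-value = 0.361). The microRNA itself is not measured by such libraries, and the entry for its hairpin had 0 or 1 count in normoxia and 1 to 7 in hypoxia. RASSF7 and PHRF1, the nearest coding genes on either side, were not called in any clone, with log2 fold changes between -0.82 and 0.66.

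LUCAT1 was at or under the detection limit in normoxia in sgCtl and sgXIST9, low in sgXIST7, and up-regulated in hypoxia in all 3. It had 3, 2 and 1 counts in sgCtl in normoxia and 36, 27 and 49 in hypoxia. In sgXIST9 it had 3, 2 and 3 counts in normoxia and 56, 25 and 34 in hypoxia. In sgXIST7 it had 14, 13 and 13 counts in normoxia and 132, 315 and 123 in hypoxia, which made this clone the highest in both conditions. The detection limit of 3 counts corresponds to 0.13 to 0.266 CPM in a library and covers counting error only, since reads carry no molecular identifiers. Hypoxia raised LUCAT1 at least 13.1-fold in sgCtl and at least 12.4-fold in sgXIST9, taking the limit for the normoxia level, and 16.4-fold in sgXIST7, where it went from 0.631 ± 0.0810 to 10.4 ± 3.99 CPM (SD, n = 3). In the edgeR fit, the log2 fold change was 4.20 (SE 0.587, adjusted p-value = 1.79e-05) in sgCtl, 4.04 (SE 0.437, adjusted p-value = 6.7e-07) in sgXIST7 and 3.75 (SE 0.557, adjusted p-value = 2.62e-05) in sgXIST9. The response in sgXIST7 differed from that in sgCtl by -0.17 (95% interval -1.49 to 1.16, adjusted p-value = 0.892), and that in sgXIST9 by -0.45 (-2.47 to 1.58, adjusted p-value = 0.83). A higher level in sgXIST7 was thus seen in both conditions, while the response itself did not differ beyond its error. In hypoxia, sgXIST7 was at 6.31, 14.3 and 10.6 CPM and sgCtl at 2.25, 1.34 and 4.34 CPM, without overlap (log2 fold change 2.01, SE 0.390, adjusted p-value = 6.27e-04). Against sgXIST9, at 2.55, 1.14 and 2.15 CPM, it was 2.42 higher on the log2 scale (SE 0.392, adjusted p-value = 4.17e-04). In normoxia, sgXIST7 was at least 3.13-fold above sgCtl (adjusted p-value = 0.0243) and at least 4.04-fold above sgXIST9 (adjusted p-value = 0.037), neither of which was called. ARRDC3, an arrestin-domain gene 54229 bases away, was 1.16 higher in hypoxia in sgXIST7 on the log2 scale, which was called, and 0.87 and 0.91 higher in sgCtl and sgXIST9. ADGRV1, on the other side, was not called in any clone.

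**Figure D2:**
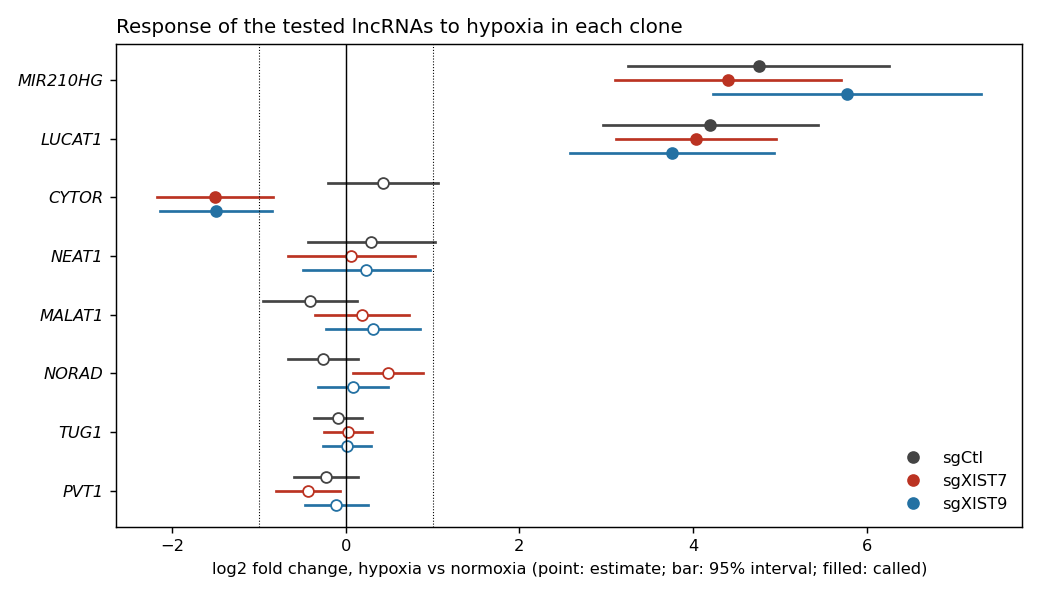
Log2 fold change of the 8 tested lncRNAs in hypoxia against normoxia in sgCtl, sgXIST7 and sgXIST9, with 95% intervals, filled where called, and dotted lines at -1 and 1. MIR210HG and LUCAT1 lie between 3.75 and 5.78 in all clones, and CYTOR is at 0.43 in sgCtl but at -1.51 and -1.49 in the KD clones.

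The coding genes that HIF is known to induce give the frame for both. Of 20 such genes, all tested, 18 were called higher in sgCtl, 19 in sgXIST7 and 19 in sgXIST9, and 0 lower. Of all genes, 11.3%, 15.1% and 14.7% were called higher and 8.49%, 12.2% and 8.58% lower. The medians of the list were 3.48, 3.40 and 3.12 on the log2 scale, against 0.02, 0.01 and 0.09 over all genes. ANKRD37 had a log2 fold change of 5.92 in sgCtl, 6.40 in sgXIST7 and 5.76 in sgXIST9. NDRG1, a stress-response gene, had 5.17, 5.09 and 6.35, and PFKFB4, an enzyme that controls glycolysis, had 5.16, 4.09 and 4.90. EGLN3, an oxygen sensor of the pathway, was not called in any clone. ADM, the vasoactive peptide adrenomedullin, was not called in sgCtl, where it was already at 287 CPM in normoxia and at 324 CPM in hypoxia, and had log2 fold changes of 4.53 and 3.93 in the KD clones. The mean log2 CPM of the list was 4.25 to 4.99 in the normoxia libraries and 7.29 to 8.18 in the hypoxia libraries. The highest normoxia value was that of sgXIST7 replicate 2, the library in which MIR210HG was also highest in normoxia.

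**Figure D3:**
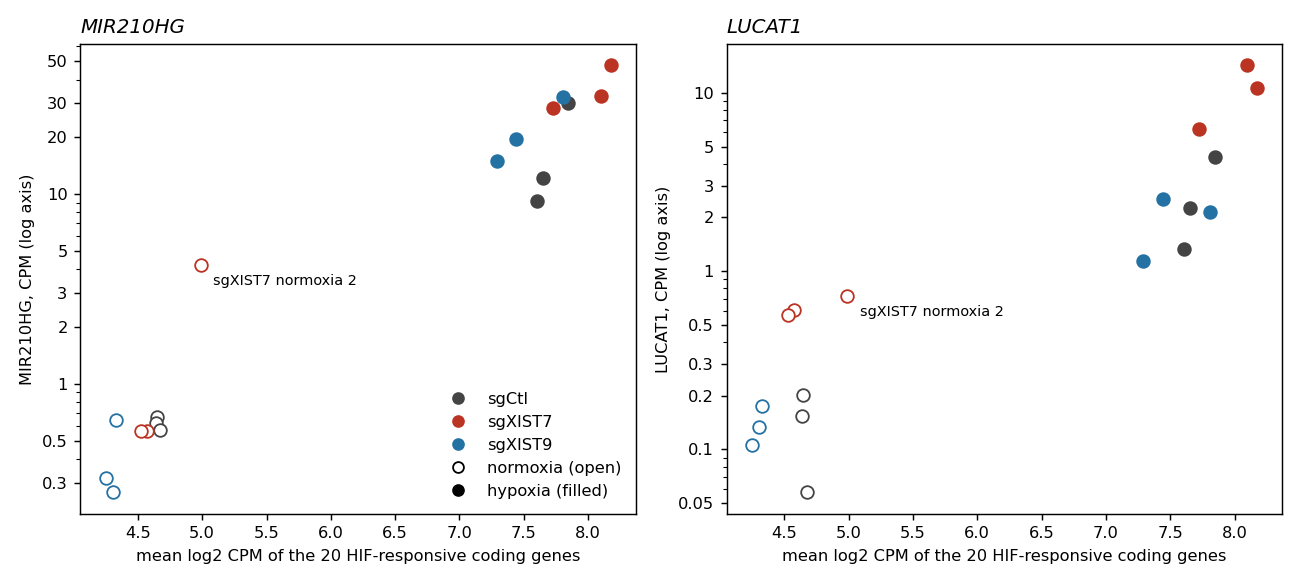
CPM (log axis) of MIR210HG and of LUCAT1 against the mean log2 CPM of the 20 HIF-responsive coding genes in each library, with open points for normoxia and filled points for hypoxia. The normoxia libraries lie at 4.25 to 4.99 and the hypoxia libraries at 7.29 to 8.18 on the horizontal axis, and sgXIST7 normoxia replicate 2 stands apart from the other normoxia libraries for MIR210HG.

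CYTOR was the lncRNA whose response to hypoxia differed between sgCtl and the KD clones. In sgXIST7 it went from 22.1, 19.99 and 24.3 CPM in normoxia to 6.02, 7.93 and 9.67 CPM in hypoxia. In sgXIST9 it went from 38.5, 43.1 and 39.2 CPM to 13.1, 14.98 and 14.8 CPM. In sgCtl it was at 22.4, 21.6 and 21.9 CPM in normoxia and at 32.1, 44.8 and 11.2 CPM in hypoxia. The KD clones did not overlap between conditions, whereas the sgCtl hypoxia libraries lay on both sides of normoxia, with 2 above and replicate 3 below. The log2 fold change was -1.51 in sgXIST7 (SE 0.315, edgeR adjusted p-value = 5.81e-04), -1.49 in sgXIST9 (SE 0.304, adjusted p-value = 5.25e-04) and 0.43 in sgCtl (SE 0.300, adjusted p-value = 0.244). In sgCtl the value rested on single libraries. It was 0.81 (adjusted p-value = 4.8e-04) without hypoxia replicate 3 and -0.01 (adjusted p-value = 0.985) without hypoxia replicate 2.

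The difference in response from sgCtl was -1.94 in sgXIST7 (SE 0.434, adjusted p-value = 0.0129) and -1.92 in sgXIST9 (SE 0.426, adjusted p-value = 0.0153), past 0.05 but not called. Without sgCtl hypoxia replicate 3 the differences were -2.31 (adjusted p-value = 1.16e-05) and -2.30 (adjusted p-value = 1.34e-05), and both were called. That was 1 of 12 fits with 1 library left out, and the others did not call them. At the weaker end the differences were -1.50 and -1.49, and adjusted p-values reached 0.0362 and 0.0443. None of the 8 was called for a difference in response, but the unadjusted p-value was below 0.05 for CYTOR in both KD clones (1 lncRNA in sgXIST9) and for NORAD in sgXIST7 (2 lncRNAs). The share of all genes at that unadjusted cut is not given here. DESeq2 called 1 in each, with 550 and 370 genes called in all for sgXIST7 and sgXIST9. Over all genes, edgeR called 1.52% for sgXIST7 and 1.01% for sgXIST9, and 9.39% and 5.27% had an adjusted p-value under 0.05, as CYTOR did. In hypoxia CYTOR was down-regulated in sgXIST7 against sgCtl by -1.92 on the log2 scale (SE 0.317, adjusted p-value = 1.55e-04), without overlap. In sgXIST9 it was -1.05 (SE 0.303, adjusted p-value = 0.0148), with overlap, and from -1.43 to -0.61 with libraries left out in turn. In normoxia, sgXIST9 was above sgCtl by 0.87 (SE 0.299, adjusted p-value = 0.0457) without overlap, but with libraries of these groups left out the adjusted p-value was 0.0857 or more.

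CYTOR shares sequence with its paralog MIR4435-2HG (chr2:111195866-111495161, minus strand in hg38), so that its counts are uncertain. Of the 1025 windows of 31 bases in its exons, 31.1% were found once in the main chromosomes of hg38. Of the same windows, 33.2% were also found in exons of MIR4435-2HG. Of the 5322 windows of MIR4435-2HG, 60.8% were found once and 6.39% were also found in exons of CYTOR. How the counting treated reads with several matches is not given in the sources used here. MIR4435-2HG moved with CYTOR. Its level was 27.6, 28.6 and 27.7 CPM in normoxia and 26.4, 30.9 and 12.8 CPM in hypoxia in sgCtl, with the same library lowest. It went from 24.6 ± 0.789 to 6.28 ± 1.46 CPM in sgXIST7 and from 43.7 ± 2.01 to 7.83 ± 1.21 CPM in sgXIST9 (SD, n = 3). The log2 fold change was -0.25 in sgCtl (adjusted p-value = 0.366), -1.99 in sgXIST7 (adjusted p-value = 2.22e-06) and -2.47 in sgXIST9 (adjusted p-value = 2.17e-07). Its response differed from that in sgCtl by -1.73 (SE 0.326, adjusted p-value = 0.00537) and -2.22 (SE 0.322, adjusted p-value = 0.00119), both called. With 1 library left out, the call for sgXIST7 was lost in 9 of 12 fits (-2.02 to -1.49, adjusted p-value up to 0.0173) and kept without sgCtl hypoxia replicate 3 or sgXIST7 hypoxia replicate 1 or 3, and the call for sgXIST9 was kept in 12 of 12. The ratio of CYTOR to MIR4435-2HG counts was 0.754 to 0.977 in normoxia and 0.875 to 2.18 in hypoxia, so that the pair did not move by the same factor. The coding genes on either side of CYTOR, PLGLB1 and PLGLB2, had 0 counts.

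**Figure D4:**
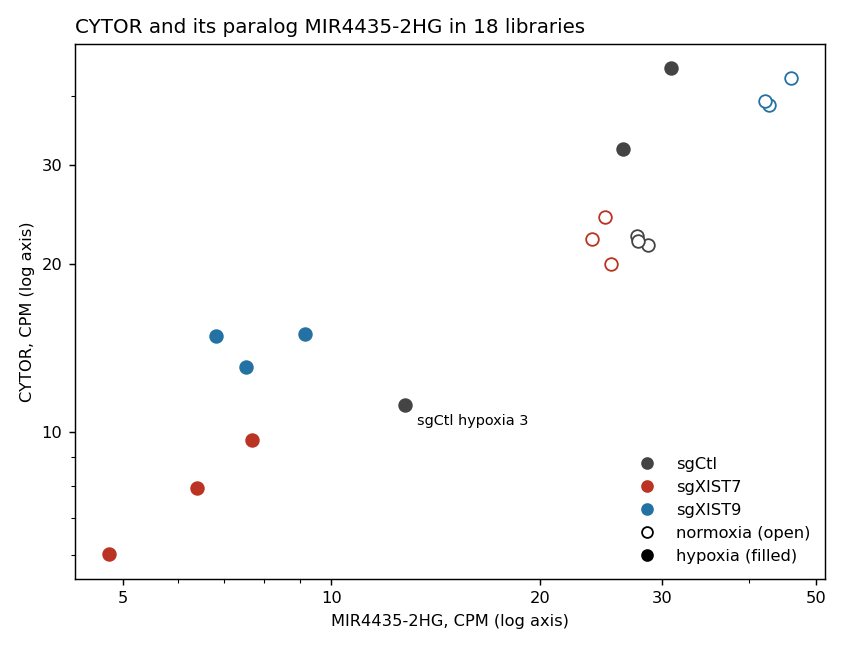
CPM of CYTOR against CPM of its paralog MIR4435-2HG in the 18 libraries (log axes), with open points for normoxia and filled points for hypoxia. The hypoxia libraries of both KD clones lie at the low end of both axes, and sgCtl hypoxia replicate 3, at 12.8 and 11.2 CPM, lies apart from the other 2 of its group.

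NEAT1 and MALAT1, the RNAs of paraspeckles and nuclear speckles, were not called in any comparison. NEAT1 was at 167, 303 and 137 CPM in normoxia and 173, 289 and 281 CPM in hypoxia in sgCtl. In sgXIST7 it was at 182, 428 and 224 CPM and then at 193, 286 and 392 CPM, and in sgXIST9 at 181, 206 and 174 CPM and then at 162, 199 and 299 CPM. Conditions overlapped in each clone, and the libraries of a group were far apart. Its log2 fold change in hypoxia was 0.29 in sgCtl (95% interval -0.44 to 1.03, edgeR adjusted p-value = 0.503), 0.06 in sgXIST7 (adjusted p-value = 0.885) and 0.24 in sgXIST9 (adjusted p-value = 0.587). Leaving out 1 library at a time moved it below 0 in both KD clones, so that no direction can be given.

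MALAT1 was the most abundant of the 10. It was at 7202, 10390 and 5098 CPM in normoxia and 4689, 5797 and 6515 CPM in hypoxia in sgCtl. In sgXIST7 it was at 5550, 9707 and 5486 CPM and then at 6446, 7624 and 9480 CPM. In sgXIST9 it was at 4263, 4349 and 3760 CPM and then at 4361, 4423 and 6645 CPM. The log2 fold changes in hypoxia were -0.42 (adjusted p-value = 0.187), 0.18 (adjusted p-value = 0.559) and 0.32 (adjusted p-value = 0.307). In normoxia it was lower in sgXIST9 than in sgCtl in each library, by -0.88 on the log2 scale (SE 0.258, adjusted p-value = 0.0211), not called. That value rested on sgCtl replicate 2, being -0.58 (adjusted p-value = 0.152) without it, and -1.09 (adjusted p-value = 0.00707) without replicate 3. TALAM1, an antisense gene that shares 7201 exon bases with MALAT1, had 122 to 268 counts. The kit keeps the strand, but the strand setting of the counting is not given in the sources used here. NEAT1 and MALAT1 had a Pearson correlation of 0.765 in log2 CPM over the 18 libraries, which share clones, conditions and scaling. NEAT1 was 2.31% to 4.98% of MALAT1 in counts.

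**Figure D5:**
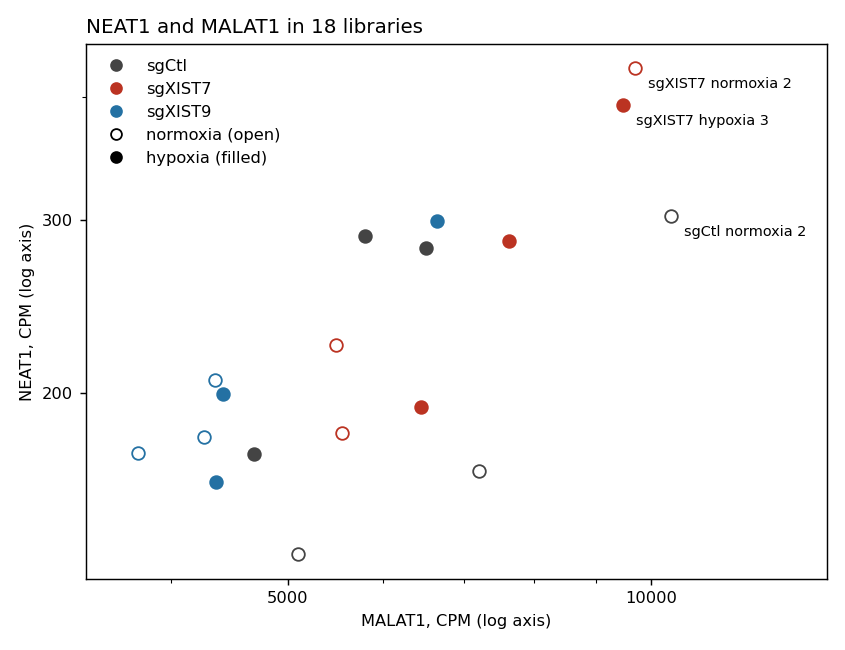
CPM of NEAT1 against CPM of MALAT1 in the 18 libraries (log axes), with open points for normoxia and filled points for hypoxia. Libraries of the same group are spread along both axes, and sgCtl and sgXIST7 normoxia replicates 2, at 10390 and 9707 CPM of MALAT1, lie apart from the other normoxia libraries.

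The coding gene on the other side of NEAT1, FRMD8, was up-regulated in hypoxia by 1.04 on the log2 scale in sgCtl and 1.83 in sgXIST7, and was 0.80 and not called in sgXIST9.

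NORAD, TUG1 and PVT1 moved by less than 1 log2 unit in each comparison. NORAD was at 437, 374 and 453 CPM in normoxia and 316, 256 and 486 CPM in hypoxia in sgCtl, at 395, 314 and 386 CPM and then 455, 433 and 648 CPM in sgXIST7, and at 418, 384 and 409 CPM and then 413, 402 and 466 CPM in sgXIST9. In CPM, it was higher in each hypoxia library of sgXIST7 than in its normoxia libraries, with a log2 fold change of 0.49 (SE 0.191, edgeR adjusted p-value = 0.037), and was -0.26 (adjusted p-value = 0.271) in sgCtl and 0.08 (adjusted p-value = 0.745) in sgXIST9. The value in sgXIST7 ran from 0.29 to 0.60 with libraries left out in turn (adjusted p-values from 0.0244 to 0.215). The separation in sgXIST7 depended on the TMM factors, which were 1.018 to 1.115 in normoxia and 0.859 to 0.926 in hypoxia. As a share of all counts in sgXIST7, NORAD was at 0.0402%, 0.0351% and 0.0393% in normoxia and at 0.0421%, 0.0383% and 0.0557% in hypoxia, with overlap. The difference in response between sgXIST7 and sgCtl was 0.75 (adjusted p-value = 0.0884), and 1.05 (adjusted p-value = 0.00233) without sgCtl hypoxia replicate 3. With libraries left out in turn, this difference ran from 0.55 to 1.05, with adjusted p-values up to 0.229. In hypoxia, NORAD was 0.54 higher in sgXIST7 than in sgCtl (adjusted p-value = 0.0319), with overlap. With libraries left out in turn that adjusted p-value ran from 4.14e-04 to 0.198. Of its 31-base windows, 36.2% were found once in the main chromosomes of hg38. CNBD2, on one side, had 0 to 13 counts and was not tested. EPB41L1, on the other, was not called in any clone. Its log2 fold changes in hypoxia were 0.28, 0.90 and 0.61 in sgCtl, sgXIST7 and sgXIST9 (adjusted p-values 0.37, 0.00455 and 0.045).

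TUG1 was at 179, 204 and 172 CPM in normoxia and 155, 198 and 168 CPM in hypoxia in sgCtl, at 145, 200 and 149 CPM and then 162, 192 and 148 CPM in sgXIST7, and at 132, 131 and 140 CPM and then 141, 135 and 130 CPM in sgXIST9. Its log2 fold changes in hypoxia were -0.09, 0.03 and 0.01 (adjusted p-values 0.594, 0.881 and 0.952). TUG1 thus had the smallest responses of the 8 with TMM scaling. With total counts, its response in sgXIST7 was -0.2221, against -0.0807 for MALAT1. TUG1 was lower in sgXIST9 than in sgCtl without overlap, by -0.46 in normoxia (adjusted p-value = 0.0181) and -0.36 in hypoxia (adjusted p-value = 0.0495). With libraries left out in turn these adjusted p-values ran from 0.0269 to 0.0886 and from 0.0385 to 0.219. MORC2, whose gene lies 437 bases away, and SMTN were not called.

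PVT1, the neighbor of MYC, was at 12.1, 19.96 and 14.9 CPM in normoxia and 11.3, 13.8 and 14.97 CPM in hypoxia in sgCtl. It was at 14.7, 18.2 and 14.6 CPM and then 12.9, 12.1 and 9.93 CPM in sgXIST7, and at 13.4, 11.53 and 11.7 CPM and then 11.1, 11.4 and 11.49 CPM in sgXIST9. Conditions did not overlap in either KD clone, though in sgXIST9 they nearly touched. The log2 fold change was -0.44 in sgXIST7 (adjusted p-value = 0.039, from 0.0385 to 0.154 with libraries left out), -0.23 in sgCtl (adjusted p-value = 0.288) and -0.11 in sgXIST9 (adjusted p-value = 0.623). MYC itself had log2 fold changes of 0.16 in sgCtl, -0.34 in sgXIST7 and -0.15 in sgXIST9, with adjusted p-values of 0.508, 0.139 and 0.527.

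HOTAIR and UCA1 were hardly detected. HOTAIR, which is known to bind chromatin modifiers, had 3, 0 and 4 counts in the sgCtl normoxia libraries and 0 or 1 in each of the other 15. UCA1, named for urothelial carcinoma, had 3 counts in sgXIST9 normoxia replicate 1, 1 in sgXIST9 hypoxia replicate 2 and 0 in the other 16. A response to hypoxia was not detectable for either at this depth. HOXC10, next to HOTAIR, had 133 to 480 counts and was not called, whereas HOXC12 had 0 or 1 count, and OR10H1 and CYP4F2, next to UCA1, had 0.

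Per kilobase of exon, MALAT1 and NORAD led in each group, at 862 ± 304 and 78.9 ± 7.82 CPM per kb in sgCtl in normoxia (SD, n = 3). TUG1 (24.1), CYTOR (17.8), NEAT1 (8.89) and PVT1 (8.07) followed there, with the last 2 overlapping, and MIR210HG (0.270) and LUCAT1 (0.137) were far below. In hypoxia, MIR210HG moved up to 7.44 CPM per kb in sgCtl, 15.7 in sgXIST7 and 9.65 in sgXIST9, overlapping NEAT1 in each clone. LUCAT1 reached 2.62, 10.3 and 1.93 CPM per kb, which overlapped NEAT1 in sgXIST7. The exons of MIR210HG are listed in the table also on an alternate contig, so that its length was taken from the main chromosome. Whether reads matched both copies, and how such reads were counted, is not given in the sources used here. Its level is uncertain to that extent. In bulk RNA, fewer cells that express a gene and less RNA per cell cannot be told apart.

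Between clones, few of the 8 were called. In hypoxia, 2 were called in sgXIST7 against sgCtl (LUCAT1 higher and CYTOR lower) where 14% of all genes were, and 1 in sgXIST7 against sgXIST9 (LUCAT1) where 4.46% were. Fitted with only the groups compared, the numbers were 0 and 0, with adjusted p-values of 0.017 for LUCAT1 and 0.0186 for CYTOR against sgCtl and 0.0103 for LUCAT1 against sgXIST9. These 2 fits called 1113 and 323 of all genes. In sgXIST9 against sgCtl in hypoxia, edgeR called 0 where 9.53% of all genes were called, and its unadjusted p-value was below 0.05 for 2. DESeq2 called 1 there, with 1514 genes called in all. In normoxia, edgeR and DESeq2 called 0 in sgXIST7 and 0 in sgXIST9 against sgCtl, where 7.76% and 7.7% of all genes were called, and 0 between the KD clones, where 3.4% were. The numbers with an unadjusted p-value under 0.05 were 1, 3 and 6. No share of all genes is given for the unadjusted numbers in this paragraph. They therefore say little about the lncRNAs as a set. At an adjusted p-value under 0.05 without a fold minimum, sgXIST7 differed from sgCtl in 1 in normoxia (21.6% of all genes) and 3 in hypoxia (42.3%). For sgXIST9 the numbers were 3 in normoxia (21.6%) and 2 in hypoxia (29.6%), and between KD clones they were 1 in normoxia (8.88%) and 1 in hypoxia (18%). The comparisons against sgCtl share the sgCtl libraries.

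Known partners and relatives of the lncRNAs were counted from lists written by hand, to be read against the shares of all genes called higher (11.3%, 15.1% and 14.7%) or lower (8.49%, 12.2% and 8.58%). Of 18 paraspeckle proteins tested, 0 were called higher and 3, 2 and 2 lower in hypoxia in sgCtl, sgXIST7 and sgXIST9, with medians of -0.65, -0.44 and -0.51 on the log2 scale. The number was 1 without sgXIST7 normoxia replicate 2, and 1 in all 6 fits that left out a sgXIST9 library. With an edgeR adjusted p-value under 0.05 and no fold minimum, 0 paraspeckle proteins were higher and 13, 11 and 11 lower. That cut was passed by 51.4%, 59% and 55.3% of all genes in either direction. RBMX, a nuclear RNA-binding protein, was at -1.28, -1.15 and -1.32, called in each clone. Of 16 nuclear speckle proteins, 0, 2 and 1 were called higher and 0, 1 and 1 lower, which with 1 library left out ran from 0 to 2, 1 to 2 and 0 to 1 higher, and from 0 to 1 lower in both KD clones. The splicing kinase CLK1 was 0.96 higher in sgCtl, not called, and 1.42 and 1.01 higher in the KD clones, and SRRM1 was called lower in sgXIST7 at -1.12. Of 6 partners of NORAD, 0 were called higher and 2, 2 and 3 lower, led by the mRNA export factor ALYREF (-1.09, -1.75 and -1.76) and by RBMX. Among 7 partners of HOTAIR, 1, 2 and 1 were called higher and 0 lower. JARID2, a cofactor of the Polycomb complex PRC2, was at 1.28, 2.13 and 1.40. Of 13 reported targets of miR-210, 1, 2 and 2 were called higher and 1, 3 and 1 lower. GPD1L was at -1.47, -1.63 and -1.47, whereas the ephrin EFNA3 was at 2.43, 3.15 and 2.44. Of 14 genes known to respond to NRF2, 4, 3 and 3 were called higher and 1, 2 and 1 lower. HMOX1, the heme oxygenase, was at 3.01, 1.76 and 2.23, GCLC, of glutathione synthesis, at 0.74 (not called), 2.29 and 1.08, and TXNRD1, the thioredoxin reductase, at -1.13, -1.44 and -1.07. When libraries were omitted singly, 1 NORAD partner was called lower without sgCtl hypoxia replicate 3, 1 HOTAIR partner was called lower without sgXIST7 normoxia replicate 1 or 3, 1 miR-210 target was called higher without sgXIST9 normoxia or hypoxia replicate 3, and 1 NRF2-responsive gene was called lower without sgXIST7 hypoxia replicate 2.

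Other lncRNAs moved in both directions. Of 19 lncRNAs that host small nucleolar RNAs, 0 were called higher and 2, 6 and 6 lower, with medians of -0.18, -0.45 and -0.49, where 8.49%, 12.2% and 8.58% of all genes were called lower. In sgCtl the number was 1 to 3 with 1 library left out, and 1 without normoxia replicate 3 or hypoxia replicate 1 or 3. SNHG3 was at -1.16, -1.20 and -1.48, SNHG16 at -1.01, -1.08 and -1.18, and SNHG12 at -0.63 (not called), -1.87 and -1.61. Of 10 other microRNA hosts tested, 1, 1 and 1 were called higher and 1, 2 and 2 lower. In sgCtl the 1 called higher was MIR503HG, which lost the call in 5 of 6 fits with 1 library left out. Those called lower include DLEU2 (-1.27, -1.47 and -1.41) and MIR4435-2HG. Among 19 further characterised lncRNAs, 6, 4 and 4 were called higher and 1, 0 and 0 lower. With 1 library left out, 3 to 5 were called higher in sgCtl (3 without hypoxia replicate 1) and 0 to 2 lower, and 1 to 4 higher in sgXIST7 (2 without normoxia replicate 1 and 1 without normoxia replicate 3). LINC-PINT was at 1.19, 1.80 and 1.58, LINC01134 at 2.09, 1.21 and 1.45, and the 1 called lower was XIST in sgCtl (-1.48, adjusted p-value = 0.00594). XIST was at 867 CPM in sgCtl normoxia replicate 2, against 329 and 242 CPM in the other 2. Its value was -0.74 (adjusted p-value = 0.08) without that library, and the call was also lost without hypoxia replicate 1 (-1.29, adjusted p-value = 0.0335) or 3 (-1.36, adjusted p-value = 0.0338). Of the 19 neighboring genes tested, 1, 4 and 2 were called higher and 1, 1 and 2 lower, with 0 higher in sgCtl without hypoxia replicate 3 and 1 lower in sgXIST9 without normoxia replicate 2 or hypoxia replicate 1.

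For each tested lncRNA, the genes whose log2 CPM ran most alike over the 18 libraries were listed among 13213 genes with a mean of at least 1 CPM. These are descriptions over libraries that share clones and conditions. MIR210HG was closest to PPFIA4 (r = 0.991), TBC1D8B and ANGPTL4, and LUCAT1 to PLEKHA8 (r = 0.978), PDIA3 and APAF1. CYTOR was closest to BIN1 (r = 0.949), ZHX1 and its paralog MIR4435-2HG (r = 0.921). NEAT1 was closest to NPRL3 (r = 0.914), IGF2BP2 and ATXN2L, MALAT1 to CDC16 (r = 0.883), KIAA1958 and SMG1, and TUG1 to PAK2 (r = 0.913) and FRS2. NORAD was closest to NDUFB4 (r = 0.931) and ATP5IF1, and PVT1 to MRTFB (r = 0.814), RBMS2 and USP14. MIR210HG and LUCAT1 had r = 0.909 with each other.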

How the data were processed

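RNA-seq of OVCAR3-KRAB cells was analyzed in 18 libraries, 3 replicates of sgCtl, sgXIST7 and sgXIST9 in normoxia and in hypoxia, grouped by the titles of the samples. The authors prepared stranded libraries from total RNA, used Trimmomatic, then HISAT2 on hg38, then featureCounts. Their deposited table holds raw read counts per gene, as the authors made them, with no scaling. Versions and the strand setting are not given in the sources used here. Of 28279 lines, 2 were broken records that held 0 counts and were left out, and 5287 genes had 0 counts in each library. The 10 lncRNAs and all gene lists were chosen with earlier results of these data known, and no pattern already seen is offered as independent evidence.

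One edgeR 4.0.16 fit (R 4.3.3, limma 3.58.1) held the 6 groups, with TMM, filterByExpr (minimum count 10, minimum total 15), glmQLFit with robust estimation and glmQLFTest (prior count 0.125), for 14938 genes. Scripts were tested on simulated data. CPM was computed on the TMM-scaled library size. Levels at 3 counts or fewer in each library of a group were taken as the detection limit, and folds against them as bounds. Correlations used log2(CPM + 0.5). Motifs and sequences came from RefSeq tables (GRCh38.p14). Windows of 31 bases were searched on both strands of the main chromosomes of hg38, without its alternate contigs. All 10 lncRNAs are named whatever their values, with the 3 genes most alike, the genes on either side, and at most 4 called genes per list, those of largest fold, plus EGLN3, added after its values were seen. Results for some of these genes are left out and not reported here. MIR4435-2HG was followed in the same way.

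The alternatives were DESeq2 1.42.0, median-of-ratios, upper-quartile and total-count scaling, no filter, a mean CPM of at least 1, a fit restricted to the groups in question, a replicate block, a threshold of 0.05 with and without the fold minimum, each library left out, and the 3 hypoxia libraries numbered 3 left out. Leaving out both normoxia libraries of high MALAT1 was chosen after the data were seen.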

Additional observations from a re-analysis of the deposited data

Results flagged for a closer look

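CYTOR and its paralog MIR4435-2HG responded to hypoxia differently in the KD clones and in sgCtl, by a test of the difference itself. For CYTOR the log2 difference in response was -1.94 in sgXIST7 (edgeR adjusted p-value = 0.0129) and -1.92 in sgXIST9 (adjusted p-value = 0.0153), neither of which was called. With 1 library left out these adjusted p-values reached 0.0362 and 0.0443. For MIR4435-2HG it was -1.73 (adjusted p-value = 0.00537) and -2.22 (adjusted p-value = 0.00119), both called, but the former lost the call in 9 of 12 fits with 1 library left out. Each KD hypoxia library of CYTOR was lower than each normoxia library of its clone, while 2 of the 3 sgCtl hypoxia libraries were higher than normoxia and replicate 3 was lower. Both comparisons share the sgCtl libraries, and the genes share sequence, so that the 4 values are not separate observations. The part of shared reads in the result was not tested.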

How the results depend on the processing

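Depth limits HOTAIR and UCA1, which could not be tested, and MIR210HG and LUCAT1 in normoxia, where few counts set the fold. Clone and guide cannot be told apart. Of 192 recomputed values for lncRNAs called in hypoxia or between clones, 189 kept direction and call, 3 lost the call and 0 reversed. The 192 include the looser thresholds, which reuse the reported fit. A called value could not lose its call or direction there, so that those values say nothing about robustness. The 3 lost calls were LUCAT1 and CYTOR in sgXIST7 against sgCtl, and LUCAT1 in sgXIST7 against sgXIST9, all in hypoxia and fitted with only the groups compared, which uses fewer libraries. The numbers called then were 0 and 0, and 1 between KD clones in normoxia. Those fits called 1113, 323 and 578 of all genes. DESeq2 called 1 in sgXIST9 against sgCtl in hypoxia and 1 in each difference in response, and total-count scaling 1 in that of sgXIST7. Genes called in all were 1514, 550 and 370 with DESeq2, and 240 with total-count scaling. At an adjusted p-value under 0.05 with the fold minimum, 1 was called in sgXIST7 against sgCtl in normoxia, in sgXIST9 against sgCtl in hypoxia, between KD clones in normoxia and in each difference in response. In the same order, 1434, 1789, 703, 706 and 468 of all genes were called. Without the fold minimum, 5 passed in hypoxia in sgXIST7, 1 in sgXIST7 and 3 in sgXIST9 against sgCtl in normoxia, 2 in sgXIST9 against sgCtl in hypoxia, 1 between KD clones in normoxia, and 1 in each difference in response. Without the 3 hypoxia libraries numbered 3, 1 was called in sgXIST9 against sgCtl in hypoxia, 2 between KD clones in hypoxia and 1 in each difference in response. Of all genes, 1812, 969, 1288 and 822 were then called, against 1423, 666, 227 and 151 in the fit as reported. With 1 library left out, 0 to 2 were called for the difference in response of sgXIST7, 0 to 1 for that of sgXIST9, and 0 to 1 for sgXIST9 against sgCtl in either condition. How many genes were called in all in those fits is not given here. The cause was not tested for any of these.

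Direction changed for values that did not pass the test. TUG1 in sgXIST9 was -0.0162 with DESeq2, -0.0118 with median-of-ratios scaling, -0.0518 with total counts and -0.0149 with only the groups compared. With total counts, NEAT1, MALAT1 and TUG1 in sgXIST7 were -0.2109, -0.0807 and -0.2221. Without the 3 hypoxia libraries numbered 3, MIR4435-2HG in sgCtl was 0.0389, NEAT1 -0.2008 in sgXIST7 and -0.0405 in sgXIST9, and the difference in response 0.0983 for MIR210HG and 0.3594 for LUCAT1 in sgXIST7, and 0.0136 for LUCAT1 in sgXIST9. Without both normoxia libraries of high MALAT1, that of MIR210HG in sgXIST7 was 1.2255. With 1 library left out, the response to hypoxia ran from -0.0085 to 0.8114 for CYTOR, -0.5029 to 0.0376 for MIR4435-2HG and -0.0856 to 0.281 for MYC in sgCtl, from -0.2027 to 0.5139 for NEAT1 and -0.0778 to 0.1834 for TUG1 in sgXIST7, and from -0.0413 to 0.4217 for NEAT1 and -0.0136 to 0.0444 for TUG1 in sgXIST9. The difference in response ran from -0.7949 to 1.2258 for MIR210HG and -0.5592 to 0.3683 for LUCAT1 in sgXIST7, and from -0.8419 to 0.0828 for LUCAT1 in sgXIST9.

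The replicate block left the number of lncRNAs called in each comparison as it was (2, 3 and 3 in hypoxia in sgCtl, sgXIST7 and sgXIST9). Over all genes, it moved the number called for the difference in response of sgXIST7 from 227 to 371. Libraries of the same number had correlated deviations over 0.1 in 18 of 45 pairs (from -0.111 to 0.593), and 16 of 18 libraries correlated best with their own number, which is a hint from the data, not the design.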
